A study of Mus musculus with 43 samples.

Results

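Cholesterol synthesis and transport were examined through 31 genes, of 35825 genes in the tables, in 43 single neurons of the lateral nucleus accumbens that project to the ventral tegmental area (NAcLat→VTA cells). The genes were taken by name, as a list of known pathway genes, with no threshold on their values. The list holds 7 enzymes of the mevalonate pathway, 11 enzymes that make squalene and turn it into cholesterol, and 5 regulators. It also holds 3 genes of transport within the cell and 4 genes of lipoprotein carriage, uptake and efflux. The last is *Cyp46a1*, which opens the main route of cholesterol removal in neurons. Of the cells, 23 came from mice on regular chow (REG) and 20 from mice that had high-fat chow with 60% fat beside standard chow for at least 4 weeks (HFD). The study lists mice aged 6 to 8 weeks from several lines and introduces its diet in C57BL/6 mice, and where it describes the recorded cells it speaks of REG and HFD mice. Every cell had taken up fluorescent beads injected into the VTA and was drawn into the patch pipette after a recording. The study counts 10 REG mice and 11 HFD mice but ties no cell to its mouse, so each diet is 1 sample here, and differences are given as values without a test.

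Cholesterol does not pass from blood lipoproteins into the brain, so brain cells make their own. Acetyl-CoA is joined to mevalonate, mevalonate to isoprenoid units, and these to squalene and then to the sterol ring. When sterol in the endoplasmic reticulum is low, Scap escorts the SREBP transcription factors (*Srebf1*, *Srebf2*) to the Golgi, where they are cut loose and switch on the enzyme genes, and when sterol is high, the Insig proteins hold Scap back. Astrocytes are known to supply neurons with cholesterol on Apoe particles, and neurons remove it as 24-hydroxycholesterol, made by Cyp46a1.

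SREBPs are known to bind the sterol regulatory element, often next to a CCAAT box, the site of NF-Y. In RefSeq promoters (GRCm38.p6), the 250 bases before the most upstream start were read on both strands for TCACNCCAC and CCAAT, and 25 of the 31 genes matched the table. The sterol element was found at *Hmgcs1*, 137 bases before the start, and at no other of the 25 genes, against 1.03% of the 27025 genes of the table. A CCAAT box was present at 13 of 15 enzymes (86.7%) and at 6 of the 10 other members (60%), against 34.5% of all genes and 36.3% of the 8361 table genes that passed the expression filter used below. The median GC content of the windows was 62.8% for the enzymes and 52% for all genes. A match is only a run of letters, and a missing match says nothing of the factor. The windows below are those of *Hmgcs1*, which holds the sterol element, and of genes whose levels differed most between the diets. Capitals mark the motifs, with ATTGG as the CCAAT box of the other strand.
Hmgcs1, chr13:119690101-119690350, forward strand: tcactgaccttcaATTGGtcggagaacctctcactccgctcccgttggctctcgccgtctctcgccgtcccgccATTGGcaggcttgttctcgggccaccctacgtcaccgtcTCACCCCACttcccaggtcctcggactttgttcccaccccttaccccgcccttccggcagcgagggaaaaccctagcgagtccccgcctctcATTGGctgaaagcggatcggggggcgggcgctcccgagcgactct
Lss, chr10:76531355-76531604, forward strand: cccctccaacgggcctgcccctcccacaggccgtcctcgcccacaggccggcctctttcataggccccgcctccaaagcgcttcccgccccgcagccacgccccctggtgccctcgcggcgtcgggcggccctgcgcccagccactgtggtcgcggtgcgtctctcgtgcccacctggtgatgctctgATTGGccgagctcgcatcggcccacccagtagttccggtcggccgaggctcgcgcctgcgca
Hsd17b7, chr1:169969206-169969455, reverse strand: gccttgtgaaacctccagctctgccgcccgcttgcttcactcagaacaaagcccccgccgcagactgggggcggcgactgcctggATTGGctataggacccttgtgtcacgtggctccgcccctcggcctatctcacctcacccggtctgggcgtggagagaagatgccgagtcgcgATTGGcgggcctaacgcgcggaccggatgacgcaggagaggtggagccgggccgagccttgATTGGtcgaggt
Sc5d, chr9:42264301-42264550, reverse strand: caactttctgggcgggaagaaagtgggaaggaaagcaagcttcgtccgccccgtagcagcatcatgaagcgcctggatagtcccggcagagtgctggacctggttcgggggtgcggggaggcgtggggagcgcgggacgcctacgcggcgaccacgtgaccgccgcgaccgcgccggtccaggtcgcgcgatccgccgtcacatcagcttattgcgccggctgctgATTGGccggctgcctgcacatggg
Insig1, chr5:28071162-28071411, forward strand: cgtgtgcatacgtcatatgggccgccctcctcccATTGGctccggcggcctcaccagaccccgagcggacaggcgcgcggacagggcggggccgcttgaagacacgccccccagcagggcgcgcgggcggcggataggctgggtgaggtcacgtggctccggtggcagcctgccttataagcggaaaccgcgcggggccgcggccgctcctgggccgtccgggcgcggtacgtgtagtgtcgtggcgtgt
Scap, chr9:110333038-110333287, forward strand: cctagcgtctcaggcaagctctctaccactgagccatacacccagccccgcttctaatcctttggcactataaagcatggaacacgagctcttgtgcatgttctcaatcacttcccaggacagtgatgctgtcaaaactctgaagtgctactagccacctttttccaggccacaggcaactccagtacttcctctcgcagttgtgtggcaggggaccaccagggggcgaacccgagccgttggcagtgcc
The window of *Hmgcs1* holds 3 CCAAT boxes beside the sterol element, that of *Hsd17b7* also 3, those of *Lss*, *Sc5d* and *Insig1* hold 1 each, and neither motif was found at *Scap*.

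The files hold estimated counts and the transcript level scaled within each cell (TPM). Total counts ranged from 176961 to 16919555, with a median of 1426795, and batch 1 by the labels held 13 REG and 5 HFD cells, batch 2 10 REG and 15 HFD cells. In the library HFD replicate 8, *Lars2* took 79.8% of the counts and the 20 leading genes 89.99%, against a median over the cells of 35.8%. The library HFD replicate 19 had the fewest genes once each cell was thinned to 150000 counts, 3470 genes. The sum of the enzymes and the median ratio of the members are given with and without these libraries. Other values over all HFD cells include them. The cells without a microglial marker, used below, include both, and those without an astrocyte marker include HFD replicate 8. Of the 8 markers of GABAergic and D1 medium spiny neurons, *Gad1*, *Gad2*, *Drd1*, *Ppp1r1b*, *Tac1* and *Pdyn* had counts in all 43 cells, *Bcl11b* in 42 and *Slc32a1* in 36, and *Drd1* was above 15 CPM in 20 of 23 REG and all 20 HFD cells. *Slc32a1* was higher in HFD cells (log2 ratio 1.55, −0.49 in batch 1 and 1.85 in batch 2). Markers of other cells were also present, and only 4 of 43 cells lacked every astrocyte, microglial, myelinating and endothelial marker above 15 CPM, the count per 1000000 counts of the cell. The 7 astrocyte markers summed to a median of 14.3 CPM (REG, 0 to 305) and 11.7 CPM (HFD, 0 to 157), and 2 of the 7 passed the filter. For the 7 microglial markers the medians were 50.8 (0.341 to 1326) and 52.3 CPM (2.61 to 1467), 5 passed, and *Csf1r* and *P2ry12* were higher in HFD cells, with log2 ratios of 2.07 and 2.27. Of 5 myelinating markers only *Mobp* passed, their sums had medians of 3.71 CPM (0 to 367) and 8.71 CPM (0 to 801), and *Mog* had a count in 1 of 43 cells. No endothelial marker passed, their sums had medians of 2.38 CPM (0 to 63.4) and 0.762 CPM (0 to 16.8), and *Cldn5* had a count in 1 of 43 cells. In 4 cells another type's markers summed above the GABAergic markers: microglial ones in HFD replicates 4 and 7 and REG replicate 12, and myelinating ones in HFD replicate 14. In HFD replicate 4 the microglial sum of 1467 CPM also exceeded that of the D1 markers, 1360 CPM.

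Between genes, levels were compared on TPM, which is scaled by transcript length. *Apoe*, the lipoprotein carrier, stood highest, with 0 TPM in the lowest cell, a median of 139 and 1754 in the highest, and its median was 117 in REG cells and 224 in HFD cells. *Cyp46a1* was next, from 0.779 to 497 TPM, with a median of 90.5 over all cells, 93.3 in REG cells and 83.0 in HFD cells. *Msmo1*, which starts the removal of the methyl groups at carbon 4 of the sterol, was the highest enzyme, with a median of 38.0 TPM (0 to 586), 45.5 in REG and 26.7 in HFD cells. These 3 genes held the same places within each diet. Below them, *Insig2* (25.3), *Abcg1* (19.7), *Srebf2* (19.2), *Hmgcs1* (17.3), *Tm7sf2* (17.03) and *Lrp1* (15.6 TPM) had medians closer together than the spread of any of them over cells, so their order is not resolved. *Lrp1*, *Abcg1* and *Cyp46a1* had counts in all 43 cells. The median member had counts in 69.8% of the cells, 73.9% of REG and 65% of HFD cells, and once the cells were thinned in 52.2% and 45%. Over all genes, HFD cells also had fewer detected, with medians of 10222 genes in REG and 9640 in HFD cells. Once thinned, these were 7827 and 7229 genes.

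**Figure D1:**
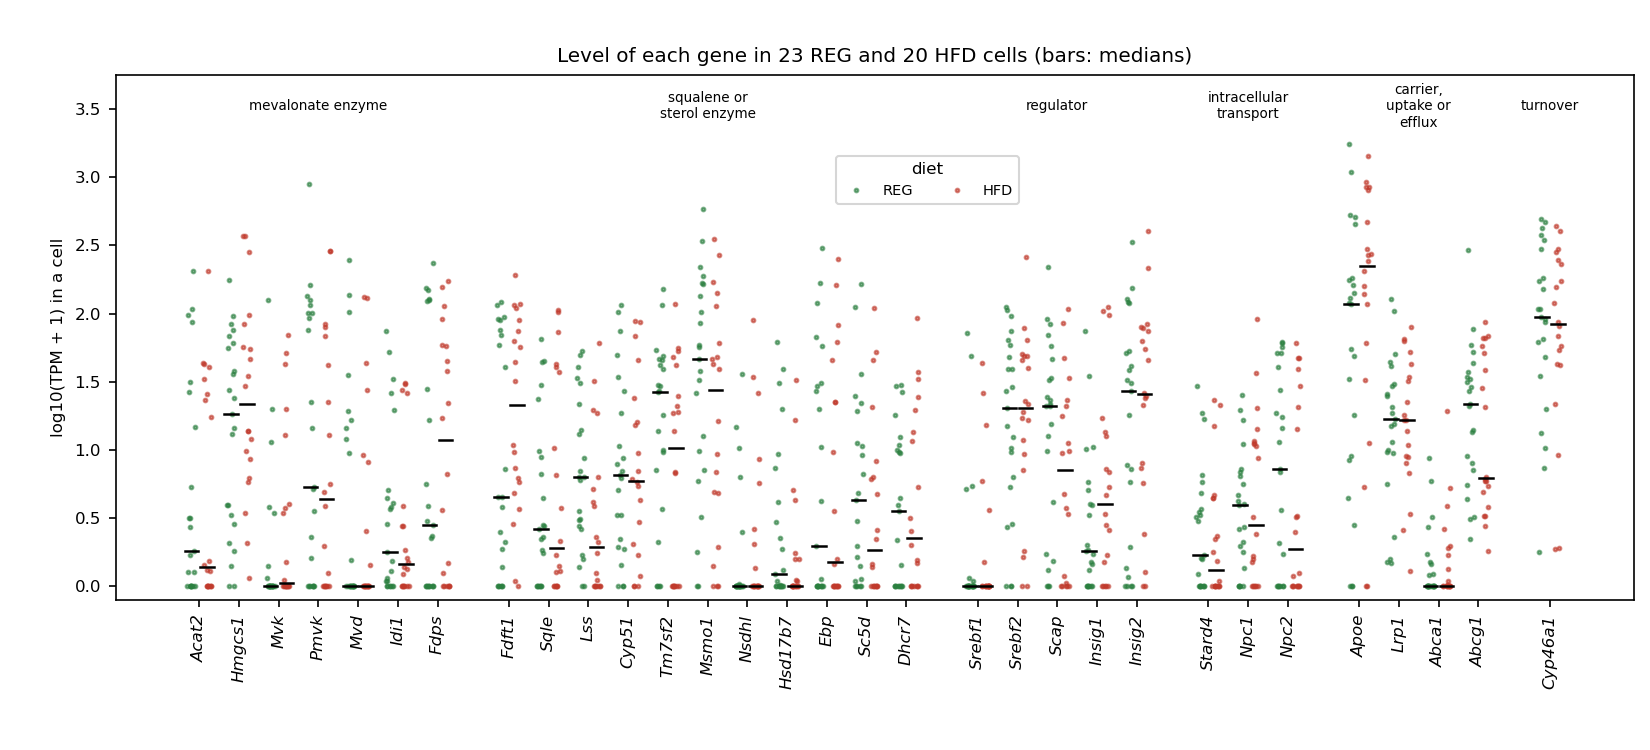
Level of each of the 31 genes, as log10(TPM + 1), in 23 REG cells (green) and 20 HFD cells (red). Each point is a cell and black bars are medians. *Apoe* and *Cyp46a1* stand highest in both diets, nearly every gene has cells at 0, and the diets overlap for every gene.

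The low end of the list was detected in few cells. *Mvk*, mevalonate kinase, had counts in 17 of 43 cells, *Mvd*, which decarboxylates mevalonate diphosphate, in 18, *Nsdhl*, a C-4 demethylation enzyme, in 14, *Srebf1* in 12 and *Abca1* in 19. The highest cell reached 110 CPM for *Mvk* in REG and 45.3 in HFD cells, and 232 and 130 CPM for *Mvd*. For *Nsdhl* it reached 37.9 and 110 CPM, and for *Srebf1* 44.2 and 36.6 CPM. The medians were 0 in both diets except for *Mvk* and *Abca1* in HFD cells (0.0947 and 0.0607 CPM), where each had counts in 10 of 20 cells. *Nsdhl*, *Srebf1* and *Stard4* did not pass the filter, which asked for 5 or more cells above 15 CPM and an average above 4 CPM, and were counted in neither direction. Their mean CPM was 3.29 in REG and 9.89 in HFD cells for *Nsdhl*, 3.24 and 3.64 for *Srebf1*, and 6.44 and 4.01 for *Stard4*, a sterol carrier of the cytosol.

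To compare the diets, the average CPM over HFD cells was divided by the average over REG cells and put on a log2 scale, and a gene was called when this ratio reached 1 in either direction. Of the 28 members that passed the filter, 4 were called higher in HFD cells (*Sqle*, *Dhcr7*, *Insig1* and *Abca1*, 14.3%), where 9.04% of all 10802 genes of the filter were. Another 5 were called lower (*Pmvk*, *Lss*, *Hsd17b7*, *Sc5d* and *Scap*, 17.9%), where 14.3% of all genes were. Both shares lay near those of all genes. When each batch and each set lacking 1 cell had to give the same sign, 2 stayed higher (*Sqle* and *Insig1*) against 6.05% of all genes, and 4 stayed lower (*Lss*, *Hsd17b7*, *Sc5d* and *Scap*) against 11.6%. The median ratio was −0.30 over the members, −0.41 over the 17 enzymes of the filter and −0.13 over all genes. The split of calls depended on the scale: it was 4 higher and 5 lower on CPM, 4 higher and 1 lower on TPM, and 6 higher and 3 lower with TMM factors, which moved the median of all genes by 0.14. The genes called changed as well. On TPM those higher were *Hmgcs1* (1.11), *Sqle* (1.01), *Insig1* (1.56) and *Npc1* (1.14), and only *Hsd17b7* (−1.39) was lower. With TMM factors *Hmgcs1* (1.31) and *Apoe* (1.03) joined the higher calls, and *Pmvk* (−0.74) and *Sc5d* (−0.997) left the lower ones. The signs of *Sqle*, *Lss*, *Sc5d*, *Scap* and *Insig1* held under each of the 13 alternatives and with each of the 43 cells left out, and the other 4 calls turned sign at least once. The limit of a call was still reached under 12 of the 13 alternatives for *Insig1*, 11 for *Scap*, 10 for *Lss* and *Hsd17b7*, 9 for *Sqle*, *Sc5d* and *Dhcr7*, 6 for *Abca1* and 5 for *Pmvk*.

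**Figure D2:**
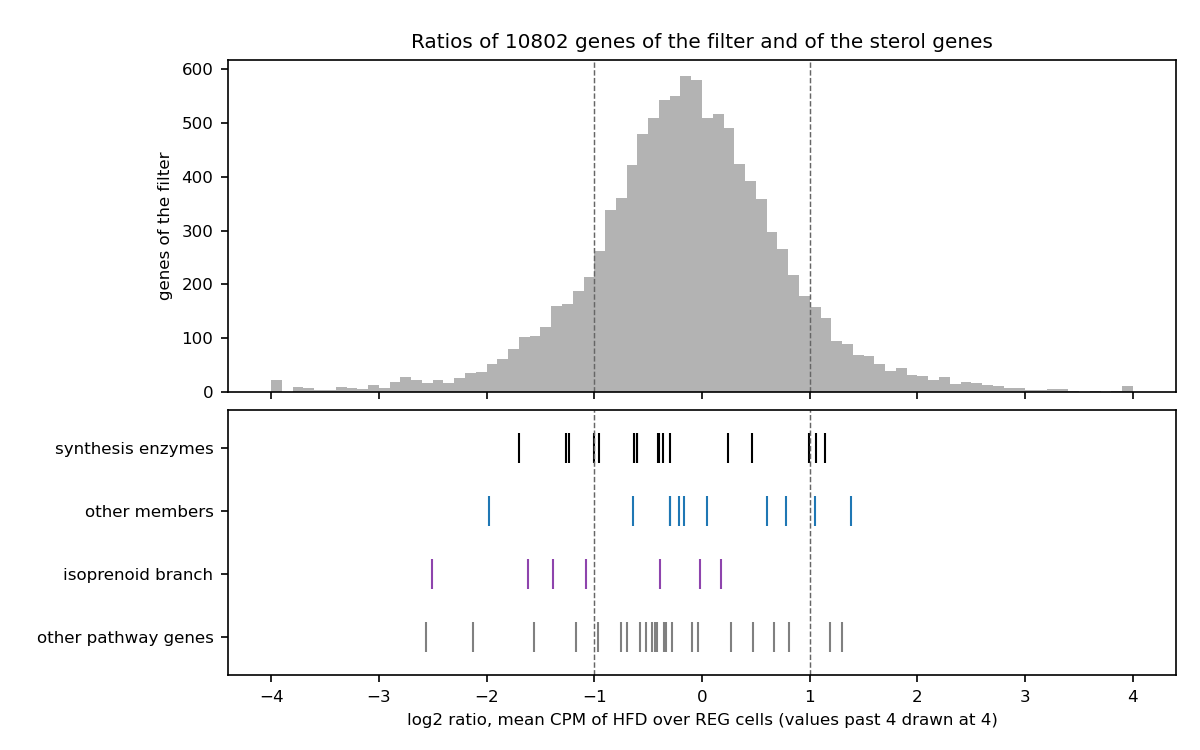
Log2 ratio of mean CPM, HFD over REG cells. The upper panel is a histogram of the 10802 genes of the filter, the lower panel marks each of the 17 synthesis enzymes, the 11 other members, the 7 isoprenoid genes and the 23 other pathway genes that passed. Dashed lines are the limits of −1 and 1, and the enzymes lie on both sides of 0.

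Of the 7 mevalonate enzymes, all passed the filter, none was called higher and 1 lower. *Pmvk*, phosphomevalonate kinase (chromosome 3, 89454541 to 89469013, forward strand of GRCm38), ranged over 0, 1.84 and 526 CPM in REG cells (lowest, median and highest cell) and over 0, 1.85 and 156 CPM in HFD cells. The medians were nearly equal, and the diets overlapped. Its mean was 44.6 CPM under REG and 22.3 CPM under HFD, which gives a log2 ratio of −1.004, but 1 cell, REG replicate 1, held 51.2% of the REG signal, and without it the ratio was −0.03. Within batch 1 the ratio was −3.73 and within batch 2 0.26.

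*Hmgcs1*, which condenses acetoacetyl-CoA and acetyl-CoA into HMG-CoA, had counts in 21 of 23 REG cells and in all 20 HFD cells, with medians of 34.9 (0 to 418) and 50.8 CPM (0.366 to 732). Its means were 67.1 and 133 CPM, a ratio of 0.99, just under the limit, and the batches went opposite ways, −1.25 and 1.59. Its highest HFD cells lay in batch 2. *Idi1*, which isomerises isopentenyl diphosphate, was lower on average in HFD cells in both batches without reaching the limit, with means of 17.5 and 9.01 CPM and ratios of −2.56 and −0.86 (−0.96 over all cells). The ratios of *Acat2*, *Mvd* and *Fdps* lay between −0.60 and −0.36, and that of *Mvk* was 0.46, with 82.1% of its REG signal in 1 cell.

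The 11 enzymes that make squalene and turn it into cholesterol included 5 of the 6 enzyme calls. *Lss*, lanosterol synthase, closes the sterol ring (chromosome 10, 76531588 to 76557138, forward strand). Its levels were 0, 16.4 and 233 CPM in REG cells and 0, 2.41 and 81.0 CPM in HFD cells (lowest, median and highest). The HFD cells crowded at the low end: 13 of 23 REG cells but 4 of 20 HFD cells were above 15 CPM, and the ranges overlapped. The means were 48.1 and 14.8 CPM, 3.25-fold lower under HFD, and the log2 ratio of −1.70 lay from −2.09 to −1.42 without any 1 cell and was −2.03 in batch 1 and −0.32 in batch 2. Counts were found in 91.3% of the REG cells (exact 95% binomial interval 72.0 to 98.9) but in 65% of those under HFD (40.8 to 84.6), and after thinning in 17 and 12 cells. These binomial intervals treat cells as independent draws, although the cells share mice and batches. On TPM the ratio was −0.78, and from summed counts −0.96.

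*Sc5d*, lathosterol oxidase (chromosome 9, 42251595 to 42264256, reverse strand), ran over 0, 2.93 and 203 CPM in REG and 0, 2.31 and 85.3 CPM in HFD cells. The medians differed little, and 9 REG against 3 HFD cells were above 15 CPM. Its means were 27.0 and 11.5 CPM, a ratio of −1.23 (−1.83 to −0.73 with any cell left out), which came from batch 2 (−2.002, against −0.07 in batch 1), and was −0.54 on TPM and −0.81 from log2(CPM + 1). *Hsd17b7*, a sterol ketone reductase (chromosome 1, 169949535 to 169969241, reverse strand), ran over 0, 0.721 and 182 CPM in REG and 0, 0 and 86.8 CPM in HFD cells. Fewer HFD cells had counts, 9 of 20 against 14 of 23, and 3 against 9 once thinned. Its ratio was −1.26 (means 19.5 and 8.13 CPM), −6.20 and −1.11 within the batches and −1.39 on TPM. A single cell held 53.4% of the HFD signal, without which the ratio was −2.29, while summed counts gave 0.46. In the 29 cells without an astrocyte marker above 15 CPM the ratio was −0.11, with means of 12.4 and 11.5 CPM. These were 11 REG and 4 HFD cells of batch 1 and 4 REG and 10 HFD cells of batch 2, so the mix of batches changed too.

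Higher in HFD cells were the enzymes before and after these steps. *Sqle*, squalene epoxidase, makes the substrate of Lss (chromosome 15, 59315077 to 59331192, forward strand). It ran over 0, 2.56 and 123 CPM in REG and 0, 2.63 and 172 CPM in HFD cells, with almost equal medians. The difference lay in a few high cells, 8 of 20 HFD and 6 of 23 REG cells being above 15 CPM. Its means were 18.1 and 37.8 CPM, a ratio of 1.06 (0.76 to 1.50 with any cell left out), 2.35 in batch 1 and 0.13 in batch 2. It was 0.06 from summed counts, 0.48 from log2(CPM + 1) and 0.54 in the cells without a microglial marker above 15 CPM, below the limit in each. *Dhcr7*, which makes cholesterol from 7-dehydrocholesterol (chromosome 7, 143823145 to 143848410, forward strand), ran over 0, 0.896 and 31.9 CPM in REG and 0, 1.14 and 107 CPM in HFD cells. It was low in nearly all cells, 3 in each diet exceeding 15 CPM. Its ratio of 1.14 (means 5.03 and 11.1 CPM) was 4.58 in batch 1 and −0.83 in batch 2, and 0.26 at the lowest with a cell left out.

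The remaining enzymes were not called. *Tm7sf2*, a sterol reductase, was lower on average in both batches (−0.57 and −0.71, −0.63 over all cells), with means of 34.7 and 22.5 CPM and counts in 19 of 23 REG and 12 of 20 HFD cells. *Msmo1* had means of 82.2 and 62.4 CPM and a ratio of −0.40. *Cyp51*, which removes the methyl group at carbon 14, went opposite ways in the batches, 2.29 and −1.94, for −0.60 over all cells. *Ebp*, the sterol isomerase, did so too (1.36 and −1.45, −0.30 over all cells), and *Fdft1*, squalene synthase, had means of 62.5 and 73.8 CPM, a ratio of 0.24.

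**Figure D3:**
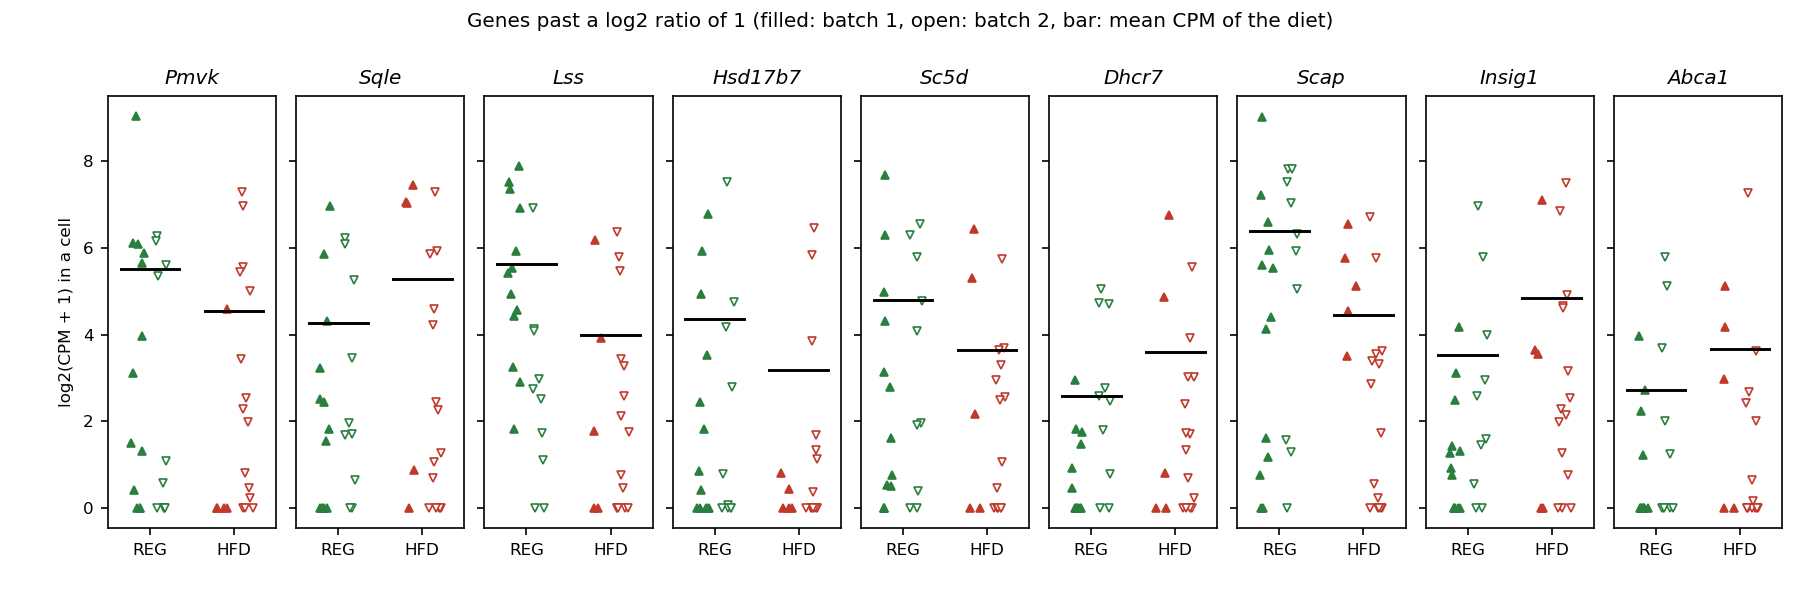
The 9 called genes in each cell, as log2(CPM + 1), by diet, with batch 1 filled and batch 2 open. Bars are the log2(CPM + 1) of the mean CPM of a diet. For every gene the diets overlap and both have cells at 0. *Lss* and *Scap* show more REG cells in the upper range. For *Pmvk* and *Insig1* in REG cells, and *Hsd17b7* and *Abca1* in HFD cells, a single cell holds more signal than all others together.

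The regulators gave the largest ratio of the list. *Scap*, the escort of the SREBPs (chromosome 9, 110333288 to 110384950, forward strand), ran over 0, 45.2 and 518 CPM in REG and 0, 9.29 and 103 CPM in HFD cells. REG cells were spread up to the top of the range, 15 of 23 above 15 CPM against 6 of 20 HFD cells, and the diets overlapped. Its means were 82.1 and 20.9 CPM, 3.93-fold lower in HFD cells, a ratio of −1.97 (−2.31 to −1.57 with any cell left out), −0.80 in batch 1 and −2.76 in batch 2. Raw counts summed to 6630 in REG (exact 95% Poisson interval 6471 to 6792) and 707 in HFD cells (656 to 761). These sums are not scaled for depth or number of cells, and divided by the summed totals they gave a ratio of −2.80. The Poisson bounds take no account of how much single cells differ, so they do not compare the diets. Counts were found in 87.0% of the REG cells (66.4 to 97.2) but in 75% of those under HFD (50.9 to 91.3). On TPM the ratio was −0.87, below the limit of a call. Of the 31-base words of the *Scap* transcripts, 11.3% are also in *5830462I19Rik*, which overlaps its exons on the opposite strand. That gene has no values in these data, and the library kit does not mark strand.

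*Insig1*, which retains Scap and is itself a known SREBP target, ran the other way (chromosome 5, 28071363 to 28078662, forward strand). It was at 0, 1.50 and 123 CPM in REG and 0, 4.33 and 178 CPM in HFD cells. Most cells of both diets were low, with 3 REG and 6 HFD cells above 15 CPM. The means were 10.6 and 27.6 CPM, 2.61-fold higher in HFD cells, a ratio of 1.38 (0.90 to 2.33), 3.54 in batch 1 and 0.33 in batch 2, and 1.56 on TPM. A single REG cell held 50.4% of the REG signal, and the ratio without it was 2.33. *Insig2*, its paralogue, was not called (−0.64; means 48.4 and 31.1 CPM; 0.51 and −1.39 within the batches). *Srebf2*, the SREBP of cholesterol genes, was level, with medians of 43.3 and 43.4 CPM, means of 60.2 and 62.0 CPM and a ratio of 0.04.

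**Figure D4:**
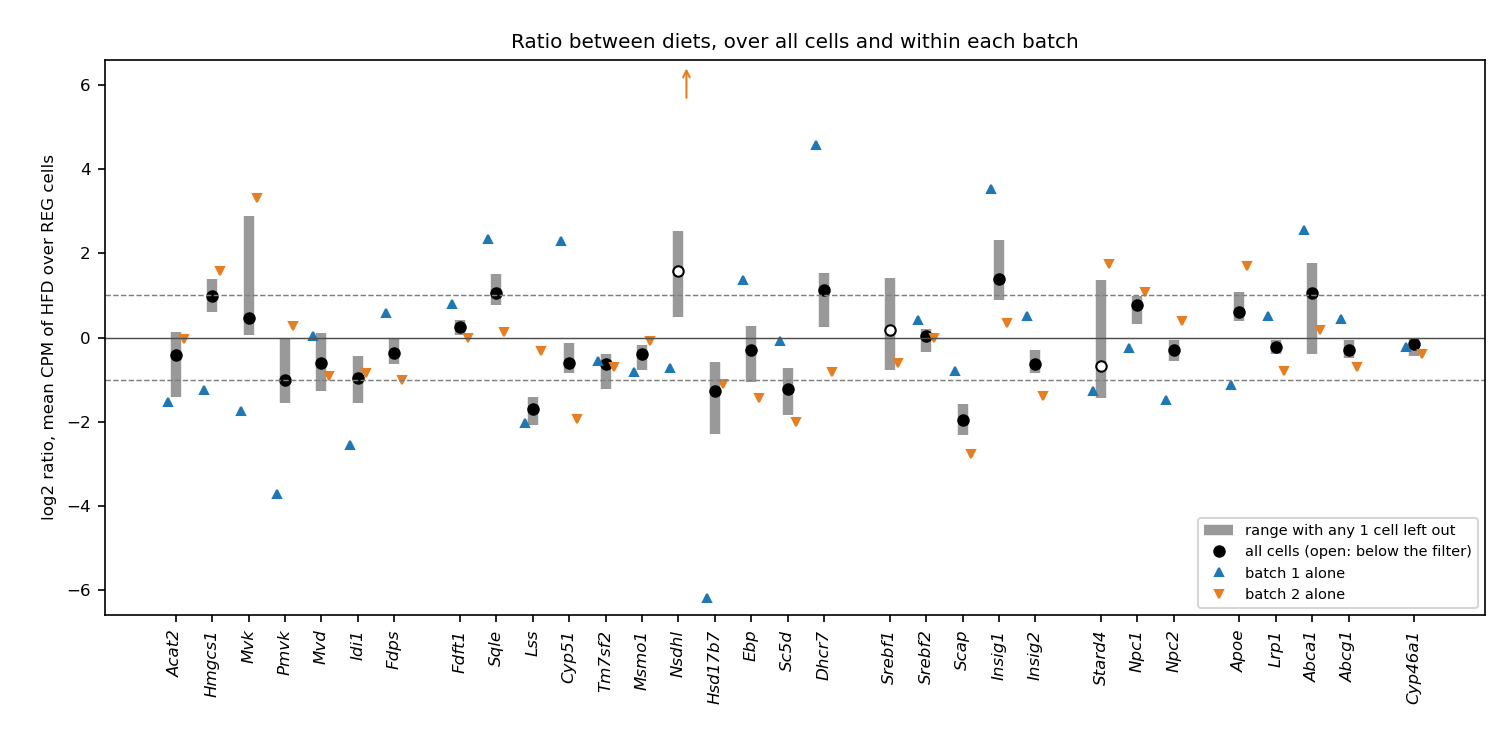
Log2 ratio of mean CPM, HFD over REG cells, for each gene: black circles for all cells (open where the gene did not pass the filter), grey bars for the range with any 1 cell left out, blue triangles for batch 1 and orange triangles for batch 2 alone. The arrow stands for *Nsdhl* in batch 2, which lies off the scale. *Lss*, *Sc5d*, *Scap*, *Sqle* and *Insig1* have both batches on one side of 0, while *Hmgcs1*, *Cyp51*, *Dhcr7* and *Apoe* have them on opposite sides.

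Among the transport genes, *Npc1* and *Npc2*, which hand cholesterol out of the lysosome, had ratios of 0.78 (means 10.1 and 17.4 CPM) and −0.30 (30.2 and 24.6 CPM), and each changed sign between the batches. *Apoe* had means of 131 and 199 CPM, medians of 55.3 (0 to 949) and 115 CPM (0 to 708), and a ratio of 0.60. It was −1.13 in batch 1 and 1.70 in batch 2, so the direction went with the batch. Because *Apoe* is abundant in astrocytes and microglia, it was set against their markers: over the 43 cells, which share batches, mice and depth, Spearman's rho of *Apoe* was 0.17 with the summed astrocyte markers, 0.09 with the microglial and 0.32 with the myelinating markers. In the 29 cells without an astrocyte marker above 15 CPM, *Apoe* was above 15 CPM in 10 of 15 REG and 11 of 14 HFD cells. Its medians there were 34.96 and 112 CPM, its means 161 and 125 CPM, and its ratio −0.36. Of these cells, 11 of 15 REG cells were of batch 1 and 10 of 14 HFD cells of batch 2. All genes of the filter had a median ratio of −0.29 there, against −0.13 in all cells. The change in ratio cannot be told apart from the changed mix of batches. In the 16 cells without a microglial marker above 15 CPM, *Apoe* was above 15 CPM in 5 of 8 REG and 6 of 8 HFD cells. Its means there were 95.7 and 166 CPM, a ratio of 0.79. The highest of these HFD cells, at 597 CPM, was HFD replicate 19, a library set apart above. The ratio of this subset without that library was not taken.

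*Lrp1*, a receptor for Apoe particles, was level (−0.22; medians of 84.7 and 86.2 CPM). *Abca1*, which loads cholesterol onto lipoproteins (chromosome 4, 53030787 to 53159895, reverse strand), was at 0, 0 and 54.5 CPM in REG and 0, 0.0607 and 152 CPM in HFD cells. Nearly all cells were at or near 0, with 2 REG and 3 HFD cells above 15 CPM. Its ratio of 1.05 (means 5.65 and 11.7 CPM) rested on HFD replicate 13, with 64.9% of the HFD signal, and was −0.38 without that cell. *Abcg1*, another exporter, had means of 59.5 and 48.5 CPM (−0.30). *Cyp46a1* had medians of 130 (0.996 to 624) and 91.4 CPM (0.612 to 729), means of 192 and 171 CPM and a ratio of −0.17, with −0.22 and −0.39 within the batches. It exceeded 15 CPM in 21 of 23 REG and 18 of 20 HFD cells.

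**Figure D5:**
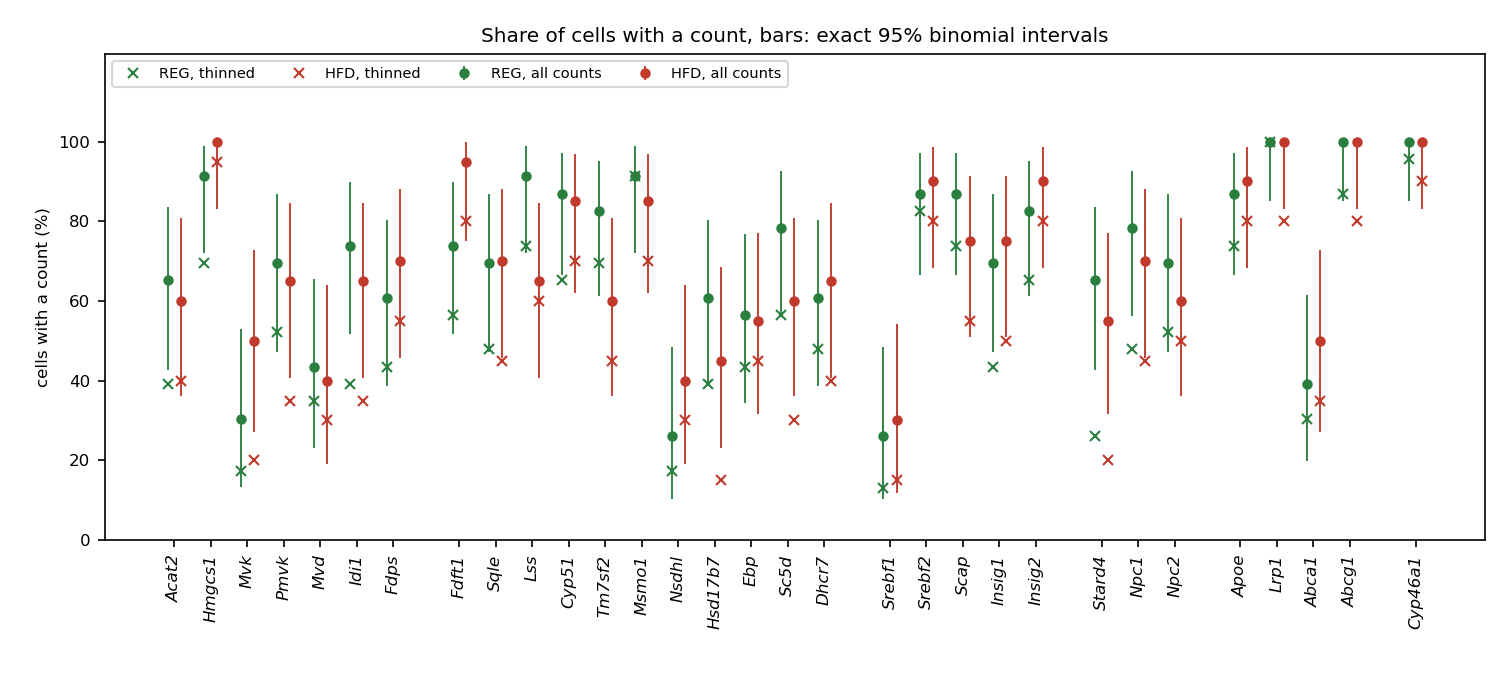
Share of cells with a count for each gene in REG (green) and HFD cells (red), with exact 95% binomial intervals as bars. These treat cells as independent draws, although the cells share mice and batches. Crosses give the same share after thinning each cell to 150000 counts. The intervals of the diets overlap for all genes, and the largest gaps toward REG cells are those of *Lss* and *Tm7sf2*.

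Summed over the 18 enzymes, the pathway held an average of 602 CPM under REG and 547 CPM under HFD, a log2 ratio of −0.14, with −0.09 and −0.16 within the batches. The REG cells ranged from 79.5 to 1410 CPM with a median of 618, and the HFD cells from 2.04 to 1949 CPM with a median of 430. HFD cells thus covered a wider range, and held both the lowest and the highest cell. The lowest, HFD replicate 19, had counts for 8 enzymes among 5468190 counts, although *Apoe* stood at 597 CPM in it, and HFD replicate 8 had 69.5 CPM in all. Without these 2 libraries the ratio was 0.0030. With 1 cell left out it lay between −0.35, without HFD replicate 16, which was the highest cell, and −0.049, without REG replicate 1. Enzymes detected per cell had a median of 12 of 18 in both diets (7 to 17 in REG and 7 to 16 in HFD cells), and of 9 and 8.5 after thinning.

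Between cells, the enzymes varied largely apart. Over the 136 pairs of the 17 enzymes of the filter, Spearman's rho of CPM over 43 cells had a median of 0.11 (quartiles 0.0026 and 0.22), and over all pairs of genes of the filter 0.08 (−0.03 and 0.19). The highest pair was *Fdft1* with *Sqle*, consecutive steps at squalene, with 0.55 (0.52 and 0.55 within the batches, 0.47 on TPM), and the lowest was *Msmo1* with *Dhcr7*, −0.29. The cells share batches, mice and depth, so these values describe the cells and carry no test.

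For 7 members, over 10% of the 31-base words of their transcripts also lie in other genes, so the authors' pseudo-alignment could have divided their reads. These were *Acat2* (43.7%, main partner *Acat3*), *Fdft1* (31.9%, main partner *Ctsb*), *Fdps* (27.9%), *Idi1* (27.1%), *Tm7sf2* (13.3%, main partner *Vps51*), *Hmgcs1* (13.1%) and *Scap*. Each percent counts words found in any other gene. Of the 1348 shared words of *Fdft1*, 744 lie in *Ctsb*, and of the 622 of *Tm7sf2*, 502 lie in *Vps51*. *Acat3* had counts in 2 of the 43 cells, *Ctsb* means of 268 and 243 CPM, and *Vps51* 22.9 and 29.5 CPM. *Gm43738*, the main partner of *Fdps*, had 0 counts over the 43 cells, and *Gm13502*, that of *Idi1*, had counts in 2 cells. The main partners of *Hmgcs1* and *Scap*, *Gm48342* and *5830462I19Rik*, have no values in these data, so a division of reads with them cannot be seen. Levels of these members are uncertain, but the share of words is not the size of an error. How far reads were divided was not tested.

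Another 38 genes of the same pathways were read as a list, of which 30 passed the filter, 2 were called higher (6.67%, against 9.04% of all genes) and 8 lower (26.7%, against 14.3%), with a median ratio of −0.43, against −0.13 over all genes. The list was chosen with earlier results known, so the shares are a description. The isoprenoid branch, which turns mevalonate products into prenyl groups, coenzyme Q and dolichol, had 8 genes on the list, of which 7 passed, 4 were called lower and none higher. These were *Pdss1*, which builds the tail of coenzyme Q (means 26.8 and 4.70 CPM, ratio −2.51), *Fntb*, a farnesyltransferase subunit (14.3 and 4.66 CPM, −1.62), *Icmt*, which methylates prenylated proteins (25.8 and 9.86 CPM, −1.39), and *Ggps1*, which makes geranylgeranyl diphosphate (77.5 and 36.8 CPM, −1.08). Each kept its sign within either batch and without any single cell, and 11.6% of all genes were called lower in that way. Of the 5 genes of SREBP processing, only *Erlin2*, of the endoplasmic reticulum, was called (lower, −1.56). Among carriers and receptors, *Apod* (−2.56; 9.95 and 1.68 CPM) and the Apoe receptor *Lrp8* (−2.13; 20.2 and 4.62 CPM) were lower with the same sign in both batches, while *Abcg4* (−1.17) was at 0.03 in batch 1. Among sterol transfer genes, *Stard3* (1.30) and *Gramd1b* (1.19) were higher, only the latter in both batches. The 2 of 7 genes of liver X receptors and oxysterols that passed were not called.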

How the data were processed

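NAcLat→VTA cells were collected by patch pipette and amplified, and the authors pseudo-aligned the reads with kallisto to a GRCm38 transcriptome. The authors deposited estimated counts per gene without normalization, of which 65.5% above 0 lie within 0.01 of a whole number, and TPM scaled within each cell. Cells excluded by the authors are not in the tables.

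Dividing each estimated count by the sum of its cell and multiplying by 1000000 gave CPM. The diets were compared as the log2 ratio of mean CPM without a pseudocount, and a diet with no count was set to 3 counts over the group. Genes were kept when 5 or more cells exceeded 15 CPM and the average exceeded 4 CPM. Detection is an estimated count above 0, with exact (Clopper-Pearson) 95% intervals, and thinning drew 150000 counts per cell. As cells are not tied to mice, no test over cells was made. The median total was 1426795 counts.

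Members, lists and comparisons were chosen with earlier results of these data known, although no measured value entered the rule for the members. All 31 members are named, with lowest, median and highest values for those called, those detected in few cells and the 3 of highest TPM. Other pathway genes are named where called. Marker lists were GABAergic neurons, D1 medium spiny neurons, astrocytes, microglia, myelinating glia and endothelial cells. The log2 limit was 1. Counts were rounded for TMM factors (edgeR 4.0.16) and size factors (DESeq2 1.42.0). The ratio was tested on simulated data. Shared words of 31 bases were taken from GENCODE transcripts, and promoters from RefSeq. Leaving out 2 libraries, and cells with astrocyte or microglial markers, was added after the data were seen. R 4.3.3, scipy 1.17.1, pandas 2.3.3, numpy 2.4.6, matplotlib 3.10.9 and Python 3.11.15 were used.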

Additional observations from a re-analysis of the deposited data

How the results depend on the processing

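Of the 9 called members, 5 kept their sign under all 13 alternatives and with each cell left out. The signs that turned were those of *Pmvk* (0.26 in batch 2 alone, 0.76 from summed counts), *Dhcr7* (−0.83 in batch 2 alone), *Hsd17b7* (0.46 from summed counts) and *Abca1* (−0.38 without HFD replicate 13, and between −0.38 and 1.77 over the cells left out). The cause was not tested. The 4 calls of higher level became 2 with a filter on the average log2 CPM, and lay between 2 and 5 with a cell left out, 2 being reached without REG replicate 7, 16 or 22. The 5 calls of lower level became 1 on TPM, 3 with TMM factors, 9 in batch 1 alone, 3 from log2(CPM + 1) and 10 in cells without a microglial marker. They lay between 3 (without REG replicate 1) and 7 with a cell left out. In the 16 cells without a microglial marker, 27.2% of all genes of the filter reached the lower limit, against 14.3% in all cells. For the other settings in this list no share of all genes was taken, so those counts have no background. The median ratio of the members, −0.30, was −0.13 on TPM, −0.27 with TMM factors, −0.28 with DESeq2 size factors, −0.24 without *Lars2* and *Gm19220*, −0.15 in batch 1, −0.35 in batch 2, −0.18 as the mean of both, −0.17 from log2(CPM + 1), −0.086 from summed counts, −0.25 thinned, −0.33 with the filter on average log2 CPM, −0.16 without HFD replicates 8 and 19, −0.21 in cells without an astrocyte marker and −0.093 in cells without a microglial marker, and between −0.39 and −0.17 with a cell left out. The summed enzymes, −0.14, gave in the same order −0.12, −0.017, −0.059, −0.12, −0.095, −0.16, −0.13, −0.72, 0.10 (summed counts), −0.090 (thinned), 0.0030 (without both libraries), −0.38 and −0.54, and between −0.35 and −0.049 with a cell left out. The cells without a microglial marker, with −0.54, include HFD replicates 8 and 19, whose enzymes summed to 69.5 and 2.04 CPM. The median share of cells with a count, 69.8%, was 34.9% above 15 CPM and 46.5% thinned. The median correlation of enzymes, 0.11, was 0.092 without *Lars2* and *Gm19220*, 0.091 thinned, 0.037 in batch 1, 0.15 in batch 2, 0.025 in REG and 0.19 in HFD cells. Size factors moved the median of all genes by 0.15. Of the 364 single ratios of the 28 members under the 13 alternatives, 40 had the opposite sign, 4 in called members and 36 in members not called, over 21 members. No paired analysis was possible because the cells of the diets are not paired and the result comes from no test.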

Other observations

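Outside the comparison of diets, *Cyp46a1* varied over cells with the summed D1 medium spiny neuron markers, with Spearman's rho of 0.52 over 43 cells, 0.37 in batch 1 and 0.72 in batch 2. These markers summed to between 1780 and 7776 CPM in REG cells and between 459 and 7645 CPM in HFD cells, and the GABAergic markers to between 302 and 1422 and between 102 and 2207 CPM. With the GABAergic markers rho was −0.01. The pair was chosen after its values were seen, the cells share batches, mice and depth, and no test was made.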
